A study of Mus musculus with 16 samples.

Results

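Collagen chain genes are described here, taken as all genes of the count tables whose symbol is Col, a number, the letter a and a number, such as Col1a1. This rule found 44 of the 47729 genes counted. No measured value enters the rule, but the chains were chosen with earlier results of these data known. RNA had been sequenced from endothelial cells (ECs), hepatic stellate cells (HSCs), Kupffer cells and hepatocytes of unchallenged mouse livers, in 16 libraries, with 2 libraries for each cell type and genotype label. The KO label stands for adult mice with Cdh5-CreERT2, a Cre recombinase that is active in endothelium after tamoxifen, and with loxP sites around exon 7 of Zeb2, on a background with a Cre-dependent eGFP reporter. The WT label stands for littermates without Cre that received the same tamoxifen, 2 mg per day on 5 days. According to the methods of the study, males of 8 weeks were used and RNA was measured 2 weeks after the last injection. Hepatocytes were separated by centrifugation. HSCs were sorted by their ultraviolet fluorescence, Kupffer cells as F4/80+ and ECs as Pan-endo (Meca32)+ cells without that fluorescence. Since Cdh5 drives the Cre, HSCs, Kupffer cells and hepatocytes of the KO label come from livers in which the deletion is directed at endothelium. Cells of the 4 types were isolated at the same time, and the labels do not say which libraries share a liver or whether replicates are separate animals, so p-values measure the spread between these libraries. The comparisons ask which cell type holds the RNA of each chain, and which chains differ between the genotype labels.

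Collagens are secreted or membrane proteins built from trimers of such chains wound into a triple helix. Fibrillar collagens (types I, III and V) form the tensile fibrils of the liver stroma, type IV forms the network of basement membranes, type VI forms beaded filaments beside cells, and fibril-associated collagens such as types XIV and XVI sit on fibril surfaces. Types XV and XVIII, the multiplexins, are proteoglycans of basement membrane zones, and the C-terminal part of the type XVIII chain is released as endostatin. Types XIII, XVII, XXIII and XXV span the plasma membrane. HSCs, the vitamin A-storing pericytes of the sinusoid, are the known main producers of fibrillar collagen in liver, whereas the sinusoid itself lacks a continuous basement membrane.

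The libraries held 12872706 to 15690506 reads on genes. Levels are given as CPM, the reads of a gene scaled by the total of reads on genes in that library (counts per 1e+06), and a level under 3 reads, or 0.191 to 0.233 CPM, could not be told from 0 by counting error alone. Zeb2 was not lower in the EC libraries of the KO label, at 199 and 130.1 CPM against 106 and 106 CPM in the WT label (log2 difference 0.62 ± 0.24, SE; edgeR adjusted p = 0.303). These counts cover the whole gene and so check the deletion of a single exon only in part, and groups are therefore called by their labels. The study itself reported an efficient deletion of Zeb2 in ECs, at the mRNA level and by the fraction of ECs that gained eGFP. Each cell type carried its own 10 markers, with a summed level of 19701 to 30245 CPM for EC markers in ECs, 40450 to 57402 CPM for HSC markers in HSCs, 45474 to 58841 CPM for Kupffer cell markers in Kupffer cells and 121803 to 136115 CPM for hepatocyte markers in hepatocytes. The hepatocyte markers also reached 14122 and 28798 CPM in the WT libraries of ECs, against 3292 and 2431 CPM in the KO libraries, and 4131 and 9208 CPM in the WT libraries of HSCs, against 669 and 1754 CPM in the KO libraries. In these bulk libraries, fewer cells of a type and less RNA per cell cannot be told apart.

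The start regions of chains that the results turn on are shown first, from RefSeq promoters on GRCm38.p6, which held 35 of the 44 genes. The genes of the main type IV chains, Col4a1 (ENSMUSG00000031502, minus strand, chromosome 8, 11198423 to 11312826) and Col4a2 (ENSMUSG00000031503, plus strand, chromosome 8, 11312805 to 11449287), lie head to head, and their first exons overlap by 22 bases, in capitals in the following plus-strand stretch at chr8:11312801-11312830.
Col4a1 and Col4a2 starts: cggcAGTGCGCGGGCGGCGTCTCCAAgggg
The minor type IV chains Col4a3 (ENSMUSG00000079465, plus strand, chromosome 1, 82586921 to 82722059) and Col4a4 (ENSMUSG00000067158, minus strand, chromosome 1, 82448423 to 82586849) also lie head to head, without an overlap. The 71 bases between their starts, at chr1:82586850-82586920 on the plus strand, are shown because the levels of both chains are compared further on.
Col4a3 and Col4a4 gap: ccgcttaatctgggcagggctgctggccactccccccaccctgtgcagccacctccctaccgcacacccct
Col3a1 (ENSMUSG00000026043, plus strand, chromosome 1, 45311538 to 45349706), the fibrillar chain with a label difference in ECs, and Col13a1 (ENSMUSG00000058806, minus strand, chromosome 10, 61838236 to 61979108), the transmembrane chain that was highest in ECs, are shown with the 250 bases before their starts, at chr1:45311288-45311537 and chr10:61979109-61979358, each on the strand of the gene. Capitals mark TATAAA, the core of a TATA box.
Col3a1 upstream: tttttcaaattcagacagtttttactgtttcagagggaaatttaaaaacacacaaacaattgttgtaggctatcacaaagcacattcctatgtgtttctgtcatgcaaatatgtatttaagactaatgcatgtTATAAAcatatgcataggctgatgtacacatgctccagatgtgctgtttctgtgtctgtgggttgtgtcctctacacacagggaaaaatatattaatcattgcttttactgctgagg
Col13a1 upstream: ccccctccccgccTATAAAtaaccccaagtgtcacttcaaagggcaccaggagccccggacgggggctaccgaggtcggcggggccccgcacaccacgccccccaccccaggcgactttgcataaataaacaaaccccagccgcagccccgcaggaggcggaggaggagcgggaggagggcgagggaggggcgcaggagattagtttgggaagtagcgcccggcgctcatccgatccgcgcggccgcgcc

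These letters begin 117 bases before the start of Col3a1 and 237 bases before that of Col13a1. Searched on both strands, TATAAA was present in 5 of the 38 upstream windows of collagen chain genes, or 13.2%, and in 12.4% of all 32851 windows of the same length. The CCAAT box (CCAAT) was present in 13 windows of the chains, or 34.2%, against 33.8% of all windows. The GC box (GGGCGG) was present in 22 windows of the chains, or 57.9%, against 32.7% of all. A match is only a description of the letters, and none of the 3 strings of letters contains another.

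Chain levels differed widely. The highest library reached 100 CPM or more for 14 chains, 10 to under 100 CPM for 9, 1 to under 10 CPM for 11 and under 1 CPM for 10, among them Col2a1, the fibrillar chain of cartilage, and Col19a1, a fibril-associated chain, which had no read in any library. Summed over the 44 genes, HSCs held 9197 and 7945 CPM in the WT label and 7532 and 6447 CPM in the KO label. ECs held 1436 and 1322 CPM in the WT label and 992 and 1137 CPM in the KO label. Hepatocytes held 748 and 537 CPM against 462 and 270.2 CPM, and Kupffer cells 81.9 and 218 CPM against 402 and 236 CPM. The sums of the labels did not overlap within any cell type, with the KO label lower in HSCs, ECs and hepatocytes and higher in Kupffer cells, but an exact permutation test of 2 against 2 libraries (two-sided) cannot give a p under 0.333. The same limit holds for every chain, class or marker list below whose labels did not overlap. The share of all genes without overlap was not counted, so these statements only describe the libraries.

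**Figure D1:**
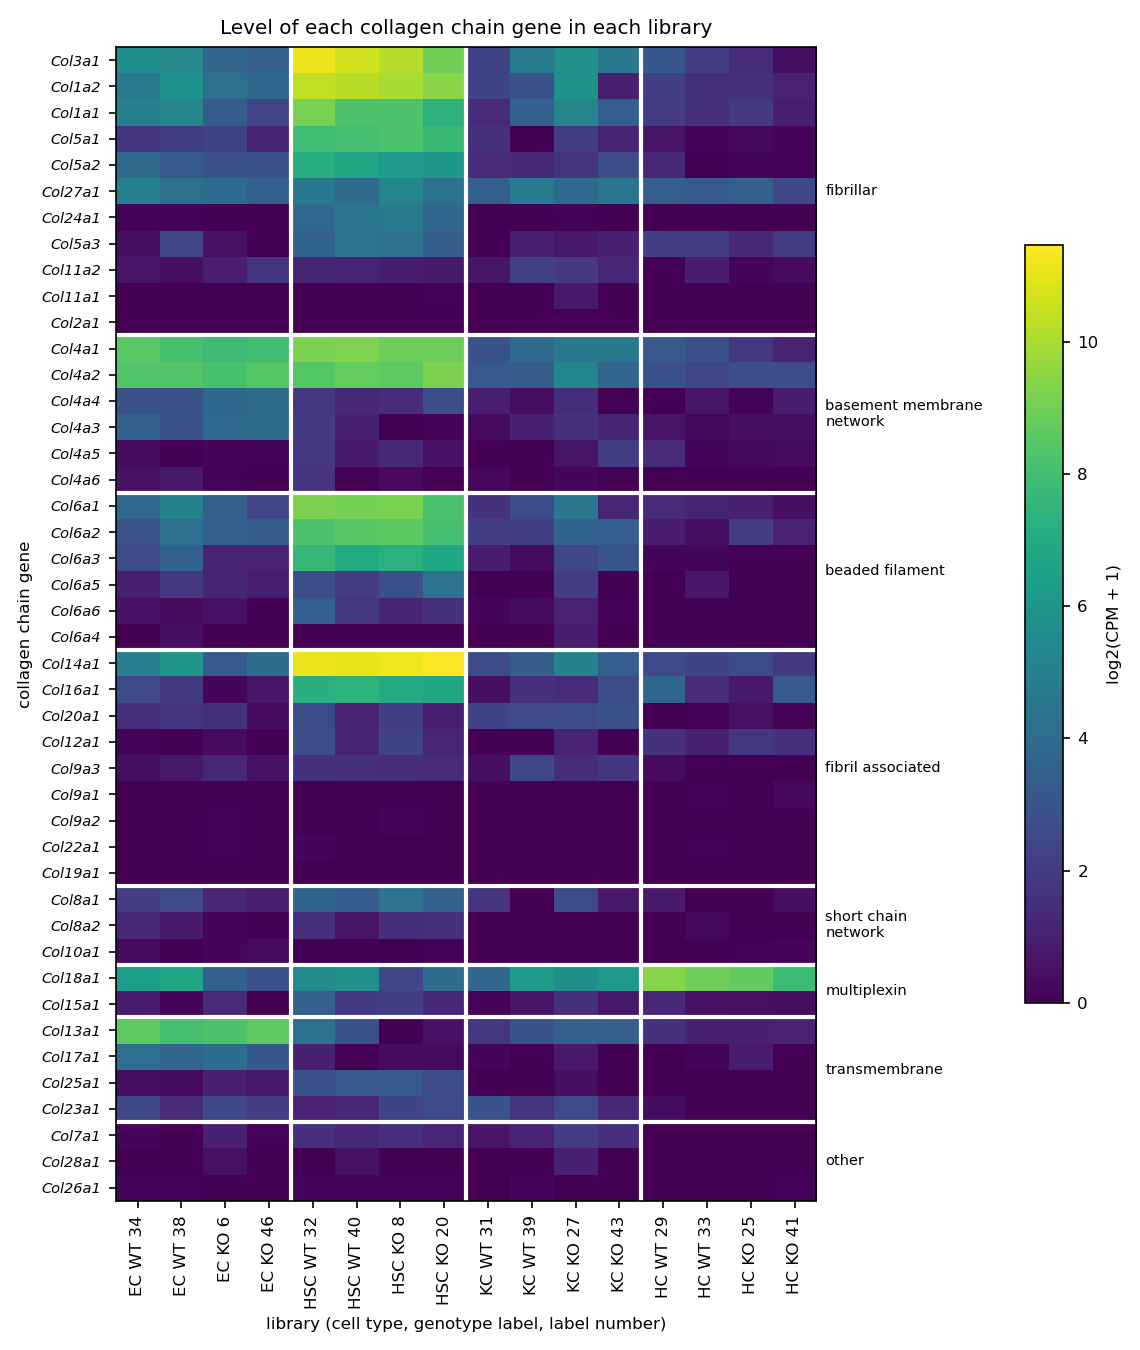
Level of the 44 collagen chain genes (rows, grouped by class) in the 16 libraries (columns, named by cell type, genotype label and label number; KC, Kupffer cells; HC, hepatocytes), as log2(CPM + 1). The fibrillar, beaded filament and fibril-associated chains with HSCs as source are brightest in the HSC columns, Col13a1 in the EC columns and Col18a1 in the hepatocyte columns.

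The classes of chains differed between the cell types. In HSCs, fibrillar chains took 50.7% and 44.4% of the chain reads in the WT label and 39.3% and 26.1% in the KO label, and fibril-associated chains took 26.1% and 28.7% against 33.8% and 45.6%. For both classes the labels did not overlap, but shares of the same total depend on each other. In ECs, the type IV chains took 46.6% to 56.3% of the chain reads and the transmembrane chains 21.7% to 35.8%, whereas fibrillar chains took 10.5% and 12.9% in the WT label and 6.77% and 4.29% in the KO label. In hepatocytes, the multiplexins took 87.0% to 92.2%. Col13a1, Col4a1 and Col4a2 together gave 66.3% to 88.2% of the chain reads of ECs, and Col14a1, Col3a1 and Col1a2 together 61.1% to 64.1% of those of HSCs.

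**Figure D2:**
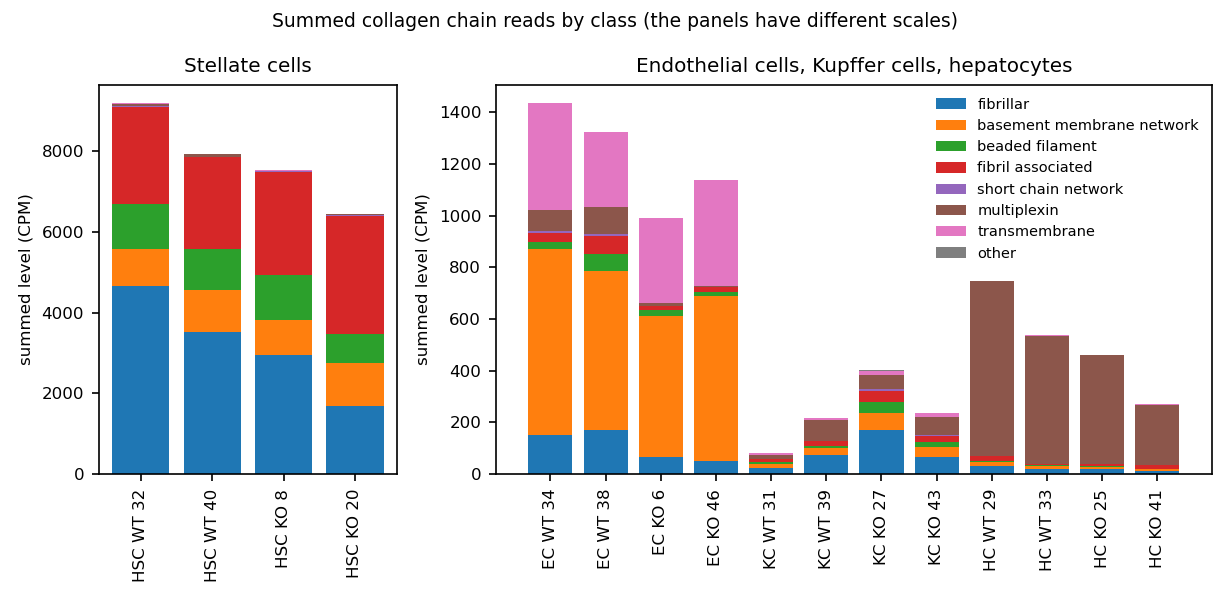
Summed CPM of the chains of each class, stacked, in each library of HSCs (left) and of the other cell types (right); the panels have different scales. HSC bars reach 6447 to 9197 CPM, and the bars of ECs consist mainly of type IV and transmembrane chains and those of hepatocytes of multiplexins.

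The source cell type of a chain was called where its level in that cell type was higher than in each of the other 3, with an edgeR quasi-likelihood test over the 16 libraries, both labels averaged and p-values adjusted over all 17214 genes tested. Fold differences between cell types come from this fit, which scales each library by a TMM factor. The factors were 0.497 to 0.588 for hepatocytes and 1.01 to 1.47 for the other libraries. These folds therefore differ from ratios of the CPM printed beside them, which are not so scaled, mainly where hepatocytes are compared. Of the 44 chains, 34 passed the filter on low counts. HSCs were the source of 14, against 6.66% of all genes tested. ECs were the source of 3, against 4.81% of all genes, and hepatocytes of 1, against 17.9%. Kupffer cells were the source of 0 chains, against 7.23% of all genes, and DESeq2 and the other alternatives run also gave 0. The other 16 chains tested had no single source.

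Of the 11 fibrillar chains, 6 had HSCs as their source, namely Col1a1, Col1a2, Col3a1, Col5a1, Col5a2 and Col24a1. Col3a1, the single chain of type III collagen, reached 2327, 1588, 1186 and 498 CPM in HSCs (WT 32, WT 40, KO 8 and KO 20), against 10.6 to 47.9 CPM in ECs, 4.16 to 52.5 CPM in Kupffer cells and 0.337 to 7.90 CPM in hepatocytes. Its HSC level was 51.8-fold above the next cell type, Kupffer cells (log2 difference 5.70 ± 0.63, SE; adjusted p = 2.44e-05). HSCs were above all other libraries, and within HSCs both KO libraries lay below both WT libraries. Col1a2, the α2 chain of type I collagen, had 1325, 1194, 1008 and 695 CPM in the same 4 HSC libraries, 48.2-fold above ECs (adjusted p = 0.000449), and Col1a1, its α1 chain, had 576, 303, 307 and 164 CPM, 25.4-fold above ECs (adjusted p = 0.000142).

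Type I collagen contains α1 in excess over α2. Per kilobase of annotated exon, however, the Col1a1 level in HSCs was 0.447 to 0.823 times that of Col1a2, and the exon length used counts all annotated exons of a gene, including those of incomplete transcripts. Col5a1 and Col5a2, chains of the type V collagen that starts fibrils, had 239, 272, 297 and 215 CPM and 143, 108, 78.2 and 68.2 CPM in these libraries, 109-fold and 13.5-fold above ECs (adjusted p = 3.96e-05 and 0.000311). The labels overlapped for Col5a1 and did not for Col5a2, which was lower in the KO label. Col24a1, a developmental fibrillar chain, had 14.0, 21.5, 24.9 and 13.4 CPM in HSCs and at most 0.0777 CPM in any other library. Of the other 5 fibrillar chains, Col27a1 was spread over all cell types (4.58 to 37.4 CPM), Col5a3 was highest in HSCs (9.47 to 21.4 CPM) without passing against hepatocytes (adjusted p = 0.213), Col11a2 had at most 3.52 CPM, Col11a1 was not tested, and Col2a1 was absent.

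Beaded filament chains had the same main source. Col6a1 reached 589, 530.1, 573 and 292 CPM in HSCs, Col6a2 311, 360.3, 379 and 268 CPM, and Col6a3 201, 127, 153 and 116 CPM, in the order WT 32, WT 40, KO 8 and KO 20. These chains, which assemble into the type VI monomer, were 44.8-fold, 35.6-fold and 59.1-fold above ECs (adjusted p = 0.000144, 9e-07 and 1.66e-06), and for all 3 the labels overlapped within HSCs. The later members of the family were low. Col6a6 was also called for HSCs, at 1.24 to 9.67 CPM, with an adjusted p of 0.0481 against Kupffer cells that was lost in 13 of 22 alternatives, Col6a5 had 2.94 to 19.4 CPM in HSCs without a called source, and Col6a4 did not pass the filter.

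Col14a1 (ENSMUSG00000022371, plus strand, chromosome 15, 55307750 to 55520803), a fibril-associated chain known from mesenchymal cells, was the chain with the most reads, at 2243, 2105, 2409 and 2829.9 CPM in HSCs, with both KO libraries above both WT libraries. Its HSC level was 115-fold above ECs (log2 difference 6.85 ± 0.49, SE; adjusted p = 1.26e-06). Per kilobase in the WT label of HSCs, Col14a1 was also the highest chain, at 310.0, followed by Col3a1 at 199, Col6a1 at 128, Col1a2 at 101, Col4a1 at 79.4 and Col1a1 at 67.0 CPM per kilobase. This order depends on exon lengths that count all annotated exons, 7013 bases for Col14a1, 9816 for Col3a1 and 12426 for Col1a2. Col16a1, another fibril-associated chain, had 143, 168, 129 and 109 CPM in HSCs and was 10.7-fold above hepatocytes (adjusted p = 0.00218), where the libraries spread from 0.709 to 12.7 CPM. Of the other 7 fibril-associated chains, Col12a1, Col20a1 and Col9a3 were tested without a called source and had at most 5.06, 6.23 and 4.37 CPM, and Col9a1, Col9a2, Col19a1 and Col22a1 did not pass the filter.

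The main type IV chains were shared between ECs and HSCs. Col4a1 had 584, 600.5, 478 and 477 CPM in HSCs (WT 32, WT 40, KO 8 and KO 20) and 374, 279, 234 and 257 CPM in ECs (WT 34, WT 38, KO 6 and KO 46). All HSC libraries were above all EC libraries, and HSCs were called as the source, 2.22-fold above ECs (log2 difference 1.15 ± 0.25, SE; adjusted p = 0.00521), a call that was lost with the WT libraries alone. Col4a2 had 332, 433, 391 and 597 CPM in HSCs and 328, 325, 283 and 350.1 CPM in ECs. The libraries of these cell types overlapped for Col4a2, and HSCs and ECs did not pass the test against each other (1.60-fold; adjusted p = 0.108), while ECs were 17.4-fold above Kupffer cells and 23.4-fold above hepatocytes.

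The level of Col4a1 per kilobase was 0.651 to 1.01 times that of Col4a2 in ECs, 0.709 to 1.56 times in HSCs and 0.560 to 1.62 times in Kupffer cells. In hepatocytes, where both chains were low, it was 1.13 and 1.24 times in the WT label and 0.412 and 0.198 times in the KO label. Against the fibrillar chain Col1a1, the level of Col4a1 per kilobase was 6.81 to 53.3 times as high in ECs and 0.892 to 2.56 times in HSCs.

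Of the minor type IV chains, Col4a3 and Col4a4 were highest in ECs. Col4a3, a chain of specialised basement membranes such as that of the glomerulus, had 11.2, 6.14, 14.3 and 16.1 CPM in ECs and at most 2.82 CPM elsewhere. ECs were called as its source, 8.88-fold above Kupffer cells (log2 difference 3.15 ± 0.66, SE; adjusted p = 0.00315), a call that was lost with the WT libraries alone. Col4a4, its partner chain, had 6.28, 6.14, 13.0 and 16.2 CPM in ECs and at most 5.67 CPM elsewhere, without a called source, since ECs did not pass against HSCs (2.91-fold; adjusted p = 0.324). Both KO libraries were above both WT libraries in ECs for either chain, but neither passed between labels (edgeR adjusted p = 0.445 for Col4a3 and 0.215 for Col4a4). The level of Col4a3 per kilobase was 1.06 to 1.89 times that of Col4a4 in the EC libraries. Col4a5 and Col4a6, the X-linked chains, whose genes also lie head to head with 1308 bases between them, stayed at or under 3.38 and 2.31 CPM in every library.

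**Figure D3:**
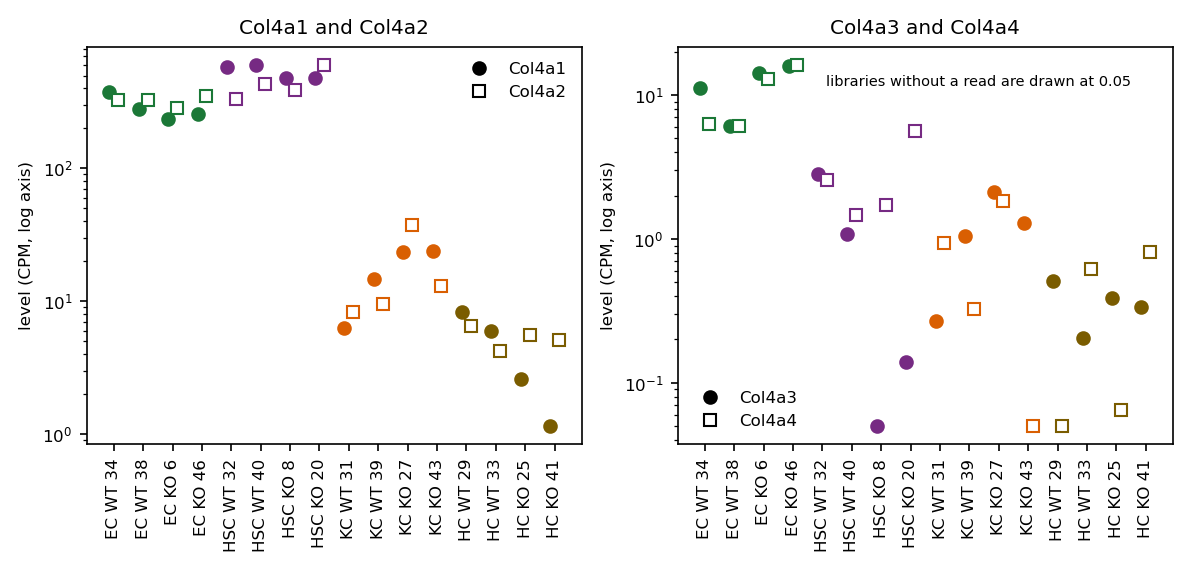
CPM (log axis) of the type IV chains encoded by head-to-head genes in each library, with filled circles for Col4a1 or Col4a3 and open squares for Col4a2 or Col4a4. Col4a1 and Col4a2 lie together in ECs and HSCs and fall to at most 37.3 CPM in Kupffer cells and hepatocytes, and Col4a3 and Col4a4 are highest in ECs.

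Of the 4 transmembrane chains, 2 had ECs as their source. Col13a1, which is known from cell junctions and the neuromuscular synapse, had 391, 273, 306 and 395 CPM in ECs (WT 34, WT 38, KO 6 and KO 46) against at most 17.8 CPM in any other library. ECs were 42.2-fold above the next cell type, Kupffer cells (log2 difference 5.40 ± 0.50, SE; adjusted p = 8.48e-06). Per kilobase of all annotated exons, Col13a1 was the highest chain in the WT label of ECs, at 72.1 CPM per kilobase, above Col4a2 at 49.3 and Col4a1 at 43.7. This order too depends on the exon lengths used. Col17a1, the hemidesmosomal chain of epithelial cells, had 17.1, 12.2, 16.9 and 7.99 CPM in ECs and at most 1.09 CPM elsewhere, with adjusted p of at most 0.0176 against each other cell type. This call was lost with the WT libraries alone and without KO 6 of ECs or without WT 40, KO 8 or KO 20 of HSCs. Of the other transmembrane chains, Col25a1, known from motor neurons and brain, was called for HSCs at 5.26 to 8.64 CPM, and Col23a1 had no source at 0 to 6.30 CPM.

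Col18a1 (ENSMUSG00000001435, minus strand, chromosome 10, 77052178 to 77166548), the multiplexin that yields endostatin, was the single chain with hepatocytes as its source. It had 675, 494, 419 and 235 CPM in hepatocytes (WT 29, WT 33, KO 25 and KO 41). In the scaled fit, hepatocytes were 17.4-fold above Kupffer cells (log2 difference 4.12 ± 0.54, SE; adjusted p = 3.92e-05), a larger ratio than that of the CPM. All hepatocyte libraries were above all others, and both KO libraries were below both WT libraries. Col18a1 took 86.8% to 92.1% of all chain reads in hepatocytes. RefSeq lists 2 start sites for Col18a1, which counts per gene cannot separate. Its relative Col15a1 had at most 10.5 CPM, in HSCs, without a called source. Col8a1 and Col8a2, short chains of vascular wall networks, reached 19.7 and 2.14 CPM in HSCs without a called source, and Col10a1 did not pass the filter. Of the remaining chains, Col7a1, the anchoring fibril chain, had at most 3.03 CPM, and Col26a1 and Col28a1 were not tested.

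In ECs, 2 of the 27 chains tested passed the threshold between labels, both lower in the KO label, against 2.08% of all genes tested. At an unadjusted p under 0.05, 10 chains were lower, against 10.1% of all genes, and 1 was higher, against 4.86%. The median log2 difference of the 27 chains was -0.66, that of all genes -0.01, and 19 chains were below 0, against 50.9% of all genes. Shares of all genes were counted with the main edgeR fits alone, so the counts from alternatives that follow have none beside them. The 2 calls became 0 without KO 46, 1 without KO 6, 5 without WT 34, 6 with DESeq2 and 0 without hepatocyte-enriched genes, which include Col18a1.

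Col18a1 had 82.9 and 106 CPM in the WT label and 10.0 and 5.91 CPM in the KO label, without overlap (log2 difference -3.57 ± 0.32, SE; adjusted p = 0.0190). It lost its call without KO 46 (log2 -3.27, adjusted p = 0.0589), and in the other alternatives that fitted it the adjusted p was at most 0.0329. Set against its mean in WT hepatocytes, Col18a1 stood at 14.2% and 18.1% in the WT label of ECs and at 1.72% and 1.01% in the KO label, where the median hepatocyte marker stood at 11.1% and 21.7% and at 2.44% and 1.95%. In HSCs the same values were 7.24% and 9.02% in the WT label and 0.757% and 2.90% in the KO label for Col18a1, and 3.05% and 6.96% against 0.502% and 1.10% for the markers. The part of hepatocyte RNA in these label differences was not tested.

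Col3a1 had 47.9 and 41.6 CPM in the WT label of ECs and 12.6 and 10.6 CPM in the KO label, without overlap (log2 difference -1.95 ± 0.27, SE; adjusted p = 0.0300). Its log2 difference was -2.07 to -1.81 in every alternative that fitted it, while the adjusted p rose to 0.346 in the fit of all 16 libraries, to 0.144 without hepatocyte-enriched genes, and to 0.124 and 0.0844 without KO 46 and without KO 6. Col1a1 had 30.7 and 36.0 against 9.33 and 4.24 CPM (log2 difference -2.31 ± 0.41, SE; adjusted p = 0.0507), and Col1a2 had 25.2 and 58.9 against 17.6 and 13.6 CPM (-1.43 ± 0.43; adjusted p = 0.193). For these fibrillar chains, named because of their unadjusted p, the labels did not overlap, which is no further support. The lower libraries were those of the KO label.

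The other chains that were lower in ECs at an unadjusted p under 0.05 were fibril-associated, beaded filament or short chains. Col14a1 had 29.0 and 66.9 CPM in the WT label and 8.64 and 16.5 CPM in the KO label (log2 difference -1.90; adjusted p = 0.156), Col6a1 had 14.2 and 32.2 against 10.4 and 4.31 CPM (-1.67; adjusted p = 0.241), and Col6a3 had 4.81 and 10.6 against 1.11 and 1.18 CPM (-2.73; adjusted p = 0.129). Col16a1 had 4.74 and 2.80 against 0.139 and 0.626 CPM, and Col8a1 3.14 and 4.82 against 1.32 and 0.973 CPM (adjusted p = 0.225 and 0.333). For Col8a2, 32 reads in the WT label stood against 2 in the KO label, a ratio of 16.9 with an exact 95% interval of 4.31 to 146 that covers counting error only. In all of these the labels did not overlap, but the chains were picked by their p, so this is no further support. Of the 10 lower chains, 7 had HSCs as their source, Col18a1 had hepatocytes, and Col8a1 and Col8a2 had none. HSCs were also the source of 14 of the 34 chains tested for one. The share with HSCs as source among all genes lower in ECs was not counted.

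HSC markers also moved with the label in ECs. Their median stood at 2.10% and 2.02% of WT HSCs in the WT label of ECs and at 0.776% and 0.796% in the KO label, with summed levels of 895 and 1061 CPM against 401 and 529.6 CPM, and Lhx2 was at 0 in WT 38 and Hand2 in both KO libraries. Over the 12 chains with HSCs as their source and at least 10 CPM, the median stood at 2.50% and 4.91% of WT HSCs in the WT label of ECs and at 1.50% and 0.766% in the KO label. Among these chains, Col4a1 stood at 39.5% to 63.1% in the EC libraries and Col5a2 at 4.93% to 11.5%. The part of HSC RNA in the label differences of fibrillar and type VI chains in ECs was not tested.

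**Figure D4:**
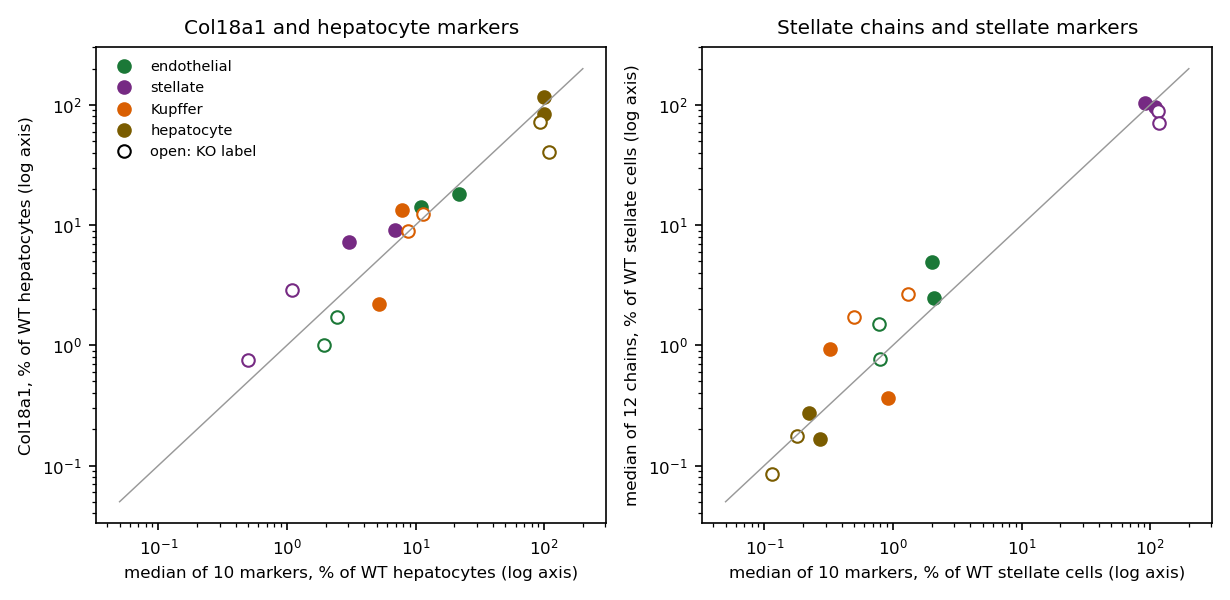
Left, Col18a1 as a percentage of its mean in WT hepatocytes against the median of 10 hepatocyte markers expressed likewise; right, the median of 12 chains with HSCs as source against the median of 10 HSC markers, both as a percentage of WT HSCs. Points are the 16 libraries on log axes, open for the KO label, and the grey line marks equal percentages; Col18a1 in ECs drops from 14.2% and 18.1% to 1.72% and 1.01% beside markers at 11.1%, 21.7%, 2.44% and 1.95%.

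The chains with ECs as their source and the other type IV chains named did not pass between labels in ECs. Col13a1 was 391 and 273 CPM in the WT label and 306 and 395 CPM in the KO label (log2 difference 0.08 ± 0.29, SE; adjusted p = 0.935), and its labels overlapped. Col4a2 differed by -0.04 ± 0.24 on the log2 scale (adjusted p = 0.968), Col4a1 by -0.41 ± 0.25 (adjusted p = 0.518) and Col17a1 by -0.26 ± 0.44 (adjusted p = 0.848). Col4a4 was higher in the KO label, at 13.0 and 16.2 against 6.28 and 6.14 CPM, with a log2 difference of 1.24 ± 0.39 and an unadjusted p of 0.0167 (edgeR, 2 libraries per label) that did not hold after adjustment (adjusted p = 0.215). Col4a3, on the other side of the same gap, differed by 0.81 ± 0.43 (adjusted p = 0.445).

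In HSCs, 0 of the 32 chains tested passed the edgeR threshold, against 0% of all genes. DESeq2 called 2, Col13a1 and Col18a1, both lower in the KO label, but the share of all genes that it called was not counted. At an unadjusted p under 0.05, 5 chains were lower, against 7.00% of all genes, and 0 were higher, against 1.75%. The median log2 difference of the chains was -0.31, that of all genes 0.02. Col3a1 had 2327 and 1588 CPM in the WT label and 1186 and 498 CPM in the KO label (log2 difference -1.27 ± 0.44, SE; adjusted p = 0.504). Col5a2 had 143 and 108 against 78.2 and 68.2 CPM (-0.80 ± 0.23; adjusted p = 0.430), while Col1a2 differed by -0.60 ± 0.24 (adjusted p = 0.577) and Col1a1 by -0.94 ± 0.42 (adjusted p = 0.618). Col14a1 differed by 0.25 ± 0.24 (adjusted p = 0.845) and Col4a1 by -0.33 ± 0.20 (adjusted p = 0.734). The median HSC marker stood at 115% and 117% of WT HSCs in the KO label against 90.5% and 109.5% in the WT label. Single HSC markers spread from 60.2% to 184% in the KO libraries and from 57.3% to 143% in the WT libraries. Smooth muscle markers in HSCs summed to 781 and 1003 CPM in the KO label against 505 and 774 CPM in the WT label. The part of cell content in the chain differences was not tested.

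The other chains with an unadjusted p under 0.05 in HSCs had ECs or hepatocytes as their source. Col13a1 had 17.8 and 6.27 CPM in the WT label of HSCs and 0 and 0.484 CPM, or 0 and 7 reads, in the KO label (log2 difference -5.59 ± 1.31, SE; adjusted p = 0.353). As a percentage of WT ECs these levels were 5.36% and 1.89% against 0% and 0.146%, where the median EC marker stood at 4.86% and 1.91% against 1.23% and 2.48%. Col4a3 had 61 reads in the WT label and 2 in the KO label, a ratio of 28.2 with an exact 95% interval of 7.49 to 238 for counting error. Col18a1 had 42.3 and 52.7 CPM against 4.42 and 16.9 CPM (-2.13 ± 0.66; adjusted p = 0.449). The part of EC and hepatocyte RNA in these differences was not tested.

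In Kupffer cells, 0 of the 25 chains tested passed, against 0% of all genes, with edgeR and with DESeq2. At an unadjusted p under 0.05, 4 chains were higher in the KO label, against 3.35% of all genes, and 0 were lower, against 1.74%. The median log2 difference was 1.28, that of all genes -0.02, and 23 of the 25 chains were above 0. Below 0 were 8.0% of the chains, against 51.5% of all genes. Col6a3 had 0.805 and 0.261 CPM in the WT label and 4.42 and 7.44 CPM in the KO label (log2 difference 3.37 ± 1.0, SE; adjusted p = 0.933), and Col6a2 3.22 and 3.33 against 11.5 and 9.88 CPM (1.65 ± 0.52). Col4a1 had 6.30 and 14.7 against 23.5 and 23.7 CPM and Col4a2 8.32 and 9.46 against 37.3 and 13.0 CPM. For these 4 chains the labels did not overlap, but the chains were picked by their unadjusted p, so this is no further support. KO 27 alone stood high for Col1a2, at 57.4 CPM against 1.02 CPM in KO 43 and 4.09 and 6.20 CPM in the WT label. It also stood above KO 43 for Col6a1 (22.4 against 1.35 CPM), Col1a1 (36.6 against 9.81 CPM) and Col14a1 (34.2 against 9.68 CPM). Col6a3, Col5a2 and Col16a1 were higher in KO 43. For several chains the higher KO mean therefore rests on a single library.

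Markers of other cell types were read in the Kupffer cell libraries. The median HSC marker stood at 0.920% and 0.326% of WT HSCs in the WT label and at 1.31% and 0.499% in the KO label, with Hand2 at 0 in WT 31, WT 39 and KO 43 and Lhx2 in WT 39, and the 12 chains with HSCs as source had medians of 0.367% and 0.933% against 2.69% and 1.71%. The median EC marker stood at 2.77% and 4.13% of WT ECs in the WT label and at 5.63% and 5.24% in the KO label, without overlap. Smooth muscle markers summed to 17.1 and 16.1 CPM in the WT label against 73.5 and 39.1 CPM in the KO label, and hepatocyte markers to 7356 and 10196 CPM against 11173 and 14033 CPM, also without overlap. The HSC markers overlapped between labels. So did the 8 portal fibroblast markers, which summed to 15.8 and 24.7 CPM in the WT label and to 57.3 (KO 27) and 14.4 CPM (KO 43) in the KO label. The part of RNA from any of these cell types in the chain differences was not tested.

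In hepatocytes, 0 of the 14 chains tested passed, against 0% of all genes, with edgeR and with DESeq2, and 3 were lower in the KO label at an unadjusted p under 0.05, against 4.69% of all genes, while 0 were higher, against 2.42%. Col18a1 had 675 and 494 against 419 and 235 CPM (log2 difference -0.78 ± 0.29, SE; adjusted p = 0.700), Col4a1 8.29 and 5.93 against 2.58 and 1.15 CPM (-1.87 ± 0.53; adjusted p = 0.700) and Col3a1 7.90 and 3.27 against 1.74 and 0.337 CPM (-2.36 ± 0.85; adjusted p = 0.700). The labels did not overlap for these 3 chains, which were picked by their unadjusted p, so this is no further support. The median of the 14 chains was -0.40 and that of all genes -0.02 on the log2 scale. The median hepatocyte marker in these libraries stood at 99.7% and 100.3% of WT in the WT label and at 93.7% and 109.0% in the KO label. The median markers of ECs, HSCs and Kupffer cells stood lower in the KO label of hepatocytes without overlap. The median EC marker was at 0.788% and 0.556% of WT ECs against 0.511% and 0.356%. The median HSC marker was at 0.221% and 0.272% of WT HSCs against 0.179% and 0.114%. For Kupffer cell markers it was 0.781% and 0.454% of WT Kupffer cells against 0.391% and 0.289%, with sums of 446 and 232 CPM against 205 and 157 CPM. The summed HSC markers overlapped between labels, at 133 and 152 CPM against 134 and 100.4 CPM. Hand2 was at 0 in WT 29, KO 25 and KO 41, Lhx2 in KO 25 and Des in KO 41. The part of RNA from these cell types in the lower Col4a1 and Col3a1 was not tested.

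**Figure D5:**
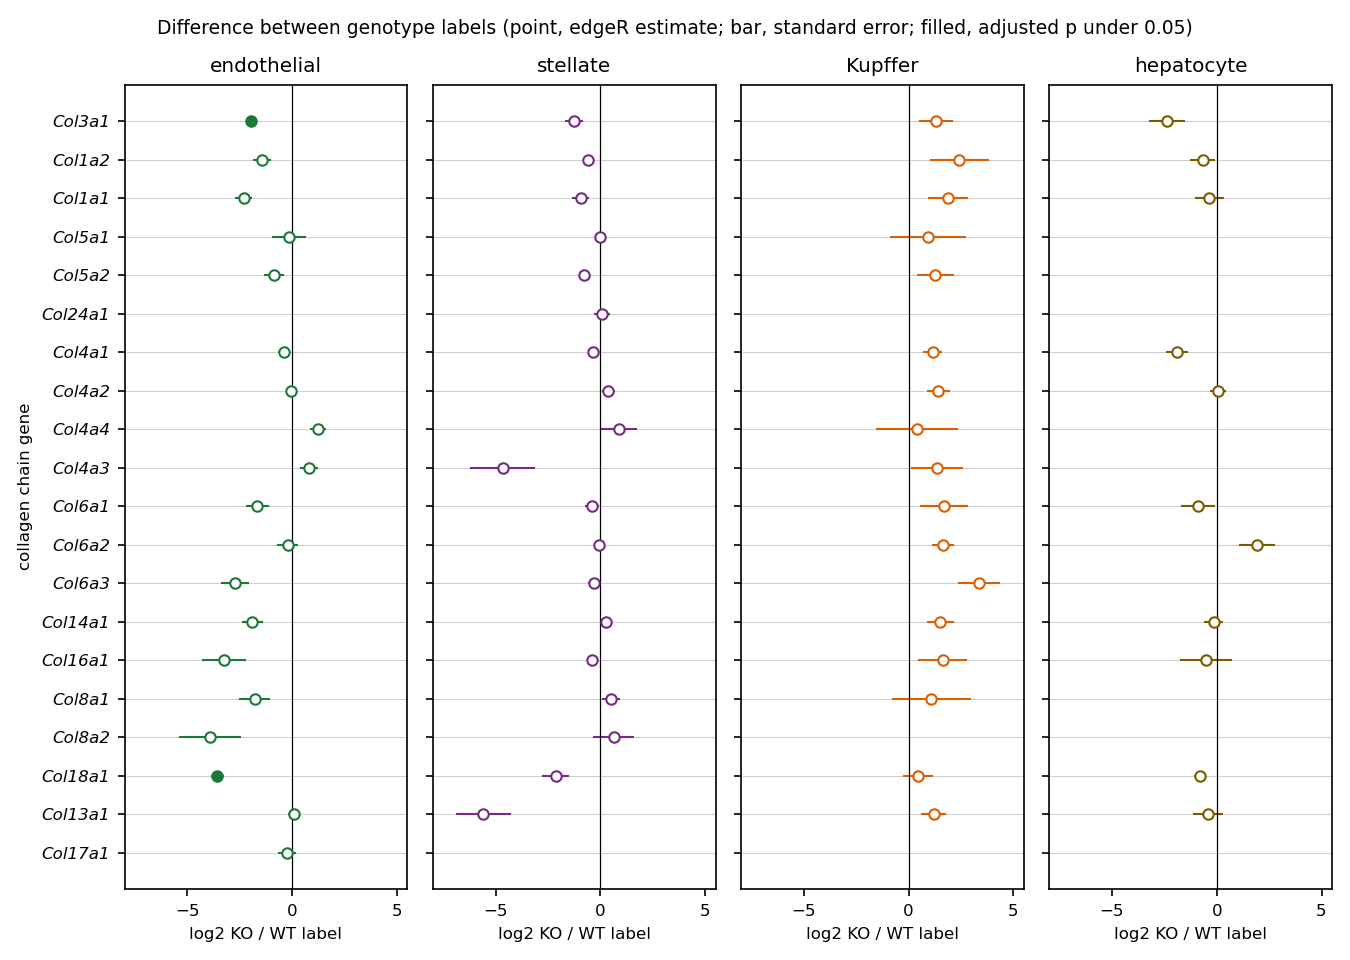
Log2 difference between the KO and the WT label (horizontal axis) of the 20 chains named with their values, in each cell type where they were tested, from edgeR with 2 libraries per label. Bars are standard errors, and filled points, Col3a1 and Col18a1 in ECs, have an adjusted p under 0.05.

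Label effects were compared between cell types as interaction terms over the 16 libraries. Between ECs and Kupffer cells, 2 of the chains passed, against 2.07% of all genes. Col6a3 fell in the KO label of ECs relative to Kupffer cells by 6.12 on the log2 scale (adjusted p = 0.0124), and Col14a1 by 3.45 (adjusted p = 0.0484). Between HSCs and Kupffer cells, 1 chain passed, Col13a1, with a label effect in HSCs minus that in Kupffer cells of -6.82 (adjusted p = 0.0235), against 0.593% of all genes. For each of these 3 chains, neither cell type compared was its source, and the part of RNA from the source cell type was not tested. With edgeR, 0 chains passed between ECs and HSCs (0.0349% of all genes), ECs and hepatocytes (0.0697%), HSCs and hepatocytes (0.0755%) or Kupffer cells and hepatocytes (0.0116%). At an unadjusted p under 0.05, the label effect of 14 of the 34 chains differed between ECs and Kupffer cells, against 14.0% of all genes, and that of 10 chains between HSCs and Kupffer cells, against 11.7%. The same count was 4 between ECs and HSCs, against 4.85% of all genes, and 4 between ECs and hepatocytes, against 9.12%. It was 5 between HSCs and hepatocytes, against 7.16%, and 7 between Kupffer cells and hepatocytes, against 8.18%. For Col18a1, which edgeR called between labels in ECs and not in HSCs, the difference to the label effect in HSCs was -1.43 (adjusted p = 1.0), so that its effects in these cell types were not shown to differ. Over all pairs, 3 chains passed with edgeR and 10 with DESeq2, for which no share of all genes was counted.

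Genes that build, process and recognise collagen were read beside the chains. Of 22 genes of collagen biosynthesis, 21 were tested for a source and 9 had HSCs as theirs. Serpinh1, the collagen chaperone Hsp47, had 1188, 884, 1243 and 531 CPM in HSCs (WT 32, WT 40, KO 8 and KO 20) and 69.1 to 286 CPM in ECs, and P4hb, the protein disulfide isomerase that is also a subunit of prolyl 4-hydroxylase, had hepatocytes as its source. Of 15 genes of processing and crosslinking, 7 of 13 tested had HSCs as their source, among them Adamts2, which removes N-propeptides, at 345 to 462 CPM, and Pcolce, an enhancer of C-propeptide removal, at 686 to 1075 CPM. Of 10 collagen receptors, 5 of 8 tested had HSCs as their source, among them the receptor tyrosine kinase Ddr2 at 285 to 533 CPM and the integrin subunit Itgb1 at 510.2 to 913 CPM. These shares compare with 6.66% of all genes that had HSCs as their source.

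Between labels, 0 of these 47 genes passed in any cell type with edgeR. DESeq2 called 2, Adamts2 and Bmp1 in ECs, without a share of all genes counted. At an unadjusted p under 0.05 in ECs, Adamts2 and Bmp1 were lower and Colgalt1 and Itga1 higher, 2 of 38 genes tested in each direction, against 10.1% and 4.86% of all genes. Bmp1, which removes C-propeptides, had hepatocytes as its source in the scaled fit. Its CPM overlapped between hepatocytes (50.1 to 83.7 CPM) and HSCs (53.7 to 83.6 CPM). In ECs, Bmp1 had 12.6 and 24.5 CPM in the WT label and 2.92 and 3.13 CPM in the KO label (log2 difference -2.61 ± 0.47, SE; adjusted p = 0.0531). Adamts2, an HSC gene, had 12.8 and 27.7 against 2.09 and 5.70 CPM (-2.34 ± 0.64; adjusted p = 0.160). Colgalt1, a collagen galactosyltransferase, had 142 and 134 against 202 and 221 CPM (0.62 ± 0.21; adjusted p = 0.255), and Itga1, a collagen-binding integrin subunit, 126 and 123 against 177 and 205 CPM (0.62 ± 0.22; adjusted p = 0.264). In HSCs, Itgb1 and Itga2, which encode integrin subunits, were lower at an unadjusted p under 0.05, 2 of 8 receptors tested against 7.00% of all genes, and Itgb1 had 913 and 866 against 617 and 510.2 CPM (-0.68 ± 0.21; adjusted p = 0.441). At the same unadjusted limit, 1 of 21 biosynthesis genes tested was higher in Kupffer cells, against 3.35% of all genes. In hepatocytes, 1 of 15 biosynthesis genes was higher, against 2.42% of all genes, and 2 of these and 1 of 5 receptors were lower, against 4.69%.

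Markers of other cells that can hold collagen were read in the same libraries. Over 8 smooth muscle markers, the sum was 505 to 1003 CPM in HSCs and 145 to 207 CPM in ECs, and over 8 portal fibroblast markers it was 113 to 255 CPM in HSCs. In ECs, the portal fibroblast markers summed to 111 and 104 CPM in the WT label and to 258 and 219 CPM in the KO label. Gli1 was at 0 in both KO libraries. This list includes Cd34, which is also among the large vessel EC markers and which the study reported as increased in ECs after Zeb2 deletion. The part of Cd34 in the higher sum was not tested. The 6 mesothelial markers summed to 6.71 to 39.6 CPM in all libraries, and the 8 cholangiocyte markers to 44.7 to 277 CPM, with Cftr at 0 in 15 of 16 libraries. The 8 large vessel EC markers summed to 198 to 306 CPM in ECs and to 343 to 453 CPM in HSCs.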

How the data were processed

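RNA of 4 cell types from mouse liver was sequenced in 16 libraries. According to the submitters' processing notes, the authors used Trimmomatic 0.32, HISAT2 2.1.0 and HTSeq 0.9.1 on GRCm38 and deposited raw counts per gene and library, which are not normalized. The strand setting and the annotation release are not given in the sources used here, and the sources name different library kits (Smart-seq2 and TruSeq stranded mRNA). The summary lines of HTSeq, which name no gene, were left out. Depth was 12872706 to 15690506 reads on genes.

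Labels were compared within each cell type by the quasi-likelihood test (edgeR 4.0.16, R 4.3.3) after filterByExpr and TMM scaling, with Benjamini-Hochberg adjustment over all genes tested (threshold 0.05). Source cell types and interactions came from a fit of all 16 libraries. SEs were derived from the log2 fold change and its F statistic. CPM were computed from the deposited counts without TMM. Alternatives were DESeq2 1.42.0, other size factors, other filters, other sets of libraries or genes, and each library left out in turn. The procedures were tested on simulated data. Figures were drawn with matplotlib 3.10.9 in Python 3.11.15. Exon lengths are the union of the exons of GENCODE M21. Named with all values were chains with a called source whose group mean reached 10 CPM, and chains with an unadjusted p under 0.05 between labels whose mean reached 1 CPM. Others are given as ranges. The chains and gene lists were chosen with earlier results of these data known. Replicates differed by more than sampling noise, and none were merged.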

Additional observations from a re-analysis of the deposited data

Results flagged for a closer look

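For 3 chains the label effect differed between cell types in the interaction test of edgeR. Neither cell type compared was the source of the chain, which was HSCs for Col6a3 and Col14a1 and ECs for Col13a1. Of all genes, 2.07% passed between ECs and Kupffer cells and 0.593% between HSCs and Kupffer cells. For Col6a3, a type VI chain, the KO against WT difference in ECs minus that in Kupffer cells was -6.12 on the log2 scale (adjusted p = 0.0124), with KO libraries lower in ECs and higher in Kupffer cells. Col6a3 had only 12 and 4 reads in the WT libraries of Kupffer cells. For Col14a1, the fibril-associated chain, it was -3.45 (adjusted p = 0.0484), in the same directions. For Col13a1, the transmembrane chain, the difference in HSCs minus that in Kupffer cells was -6.82 (adjusted p = 0.0235), with 0 and 7 reads in the KO libraries of HSCs. The part of RNA from the source cell types in these differences was not tested.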

How the results depend on the processing

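No paired analysis was possible because the label numbers are not shared between groups. Shares of all genes were counted for the main edgeR fits alone, so the counts from alternatives below stand without them. In ECs, 2 chains passed between labels, 6 with DESeq2, 7 without a filter on low counts and 0 without the 857 hepatocyte-enriched genes, which include Col18a1. Leaving out 1 library gave 0 (without KO 46) to 5 (without WT 34) chains, with 1 without KO 6, and the lone library left was assumed to vary like the other label. In HSCs the count of 0 became 2 with DESeq2, 1 in the fit of all 16 libraries (Col13a1) and 4 without a filter, and was 0 to 0 with a library left out. In Kupffer cells 0 became 1 without a filter and 0 to 1 with a library left out (Col1a2, without KO 43), and in hepatocytes 0 became 1 without a filter. The 3 chains with ECs as source became 1 with WT libraries alone and 2 to 3 with a library left out. The 3 chains with an interaction became 10 with DESeq2, 16 without a filter, 2 with library totals alone, an alternative chosen after seeing the data, and 1 to 4 with a library left out. The 0 list genes changed became 2 with DESeq2. The direction of small label differences turned in 12 cases. With a library left out, the log2 difference of Col13a1 in ECs ranged from -0.17 to 0.41 and that of Col17a1 in ECs from -0.81 to 0.16. In HSCs it ranged from -0.28 to 0.086 for Col6a2, from -0.63 to 0.062 for Col6a3, from -0.36 to 0.40 for Col24a1 and from -0.21 to 0.13 for Col5a1, and Col5a1 came to 0.0022 with library totals alone. Of the other values of single chains, 292 kept direction and side of the threshold, 11 passed it and 5 lost it. The cause was not tested.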

Other observations

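Neighbouring chain genes did not all share a source. On chromosome 1, Col3a1 and Col5a2 lie 24614 bases apart and both had HSCs as their source. On chromosome 10, Col6a2 and Col6a1, with 85161 bases between them, had HSCs as their source, while Col18a1, 326009 bases beyond Col6a1, had hepatocytes. On chromosome 9, Col6a6, Col6a5 and Col6a4 lie 27917 and 28810 bases apart, with at most 9.67, 19.4 and 0.857 CPM in any library. On the X chromosome, Col4a6 and Col4a5 lie 1308 bases apart, with at most 2.31 and 3.38 CPM.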
